A study of Mus musculus with 4 samples.

Results

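The IL-20 subfamily of cytokines and their receptor chains were followed in whole skin of mice with and without a conditional deletion labelled for Ppp6c, which encodes the catalytic part of protein phosphatase 6. The group comprised 7 genes, taken from the deposited table by gene name: the ligand genes Il19, Il20 and Il24 and the receptor chain genes Il20ra, Il20rb, Il22ra1 and Il10rb. All 7 were found once each among the 47725 genes of the table. Of these 7, 6 passed a filter on low counts and were tested together with 17440 genes in all, and Il20 was too low to be tested.

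The RNA came from skin of C57BL/6J mice aged 17 weeks. The 2 control libraries, numbered 2 and 3, came from mice written PP6fl/fl, that is with the Ppp6c gene flanked by recombination sites, so the controls carried the floxed allele too. The 2 libraries of the other group, also numbered 2 and 3, are titled cKO, and the series title joins the floxed allele to K5, taken here to mean the keratin 5 promoter, which is active in basal keratinocytes and not in most other cells of the tissue. The labels do not name the recombinase, the sex of the mice or whether the libraries of a group came from separate animals, so each p-value rests on the variation among 4 libraries, part of which may be technical.

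IL-19, IL-20 and IL-24 are small helical cytokines of the IL-10 family. They act through paired receptor chains: IL-20RA with IL-20RB binds all of these ligands, and IL-22RA1 with IL-20RB binds IL-20 and IL-24. IL-22RA1 also pairs with IL-10RB to form the receptor of IL-22, and IL-10RB serves the receptors of IL-10 and of the type III interferons. The chains signal through JAK kinases, mainly to STAT3. In skin the ligands are made by keratinocytes and by leukocytes, the IL-20RA, IL-20RB and IL-22RA1 chains are found on epithelial cells such as keratinocytes, and the ligands are known for raising antimicrobial and stress keratin genes in psoriatic epidermis.

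The counts summed to between 15837136 and 23407731 per library. Ppp6c itself had 57.8 and 61.8 CPM (counts relative to library size, scaled between libraries with TMM) in control replicates 2 and 3, against 62.1 and 50.1 CPM in the cKO replicates, and the groups overlapped. Reads over the entire transcript of a tissue with many cell types cannot tell whether the floxed exons are gone, and the genotype is taken from the titles.

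Of the ligands Il24 rose, from 6 counts in control to 211 in cKO, a scaled ratio of 50.6 (95% counting interval 22.9 to 140.0). Of the receptor chains Il20rb, which both receptors of the subfamily share, fell from 193 ± 4.53 to 64.7 ± 5.37 CPM (SD, n = 2). Il20ra and Il22ra1 were lower and Il19 and Il10rb higher in both cKO libraries than in both control libraries, without passing the test. The libraries of the groups were likewise separate for 52.9% of all tested genes. Il20 had between 1 and 7 counts per library. Of the 6 tested genes 1 was called higher and 1 lower, whereas 0.74% of all tested genes were called higher and 0.35% lower (edgeR quasi-likelihood test, Benjamini-Hochberg adjusted p under 0.05). Il24 and Il19 passed the filter on low counts only with the cKO libraries, so a call of either could only be higher, and the count of members called higher is not read against that share. Before adjustment 20% of all tested genes had p under 0.05, and DESeq2 called 10.8% of them, the edgeR exact test 10.2% and limma voom 1.15%. Of the members, DESeq2 called 4, the exact test 4 and limma voom 1.

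**Figure D1:**
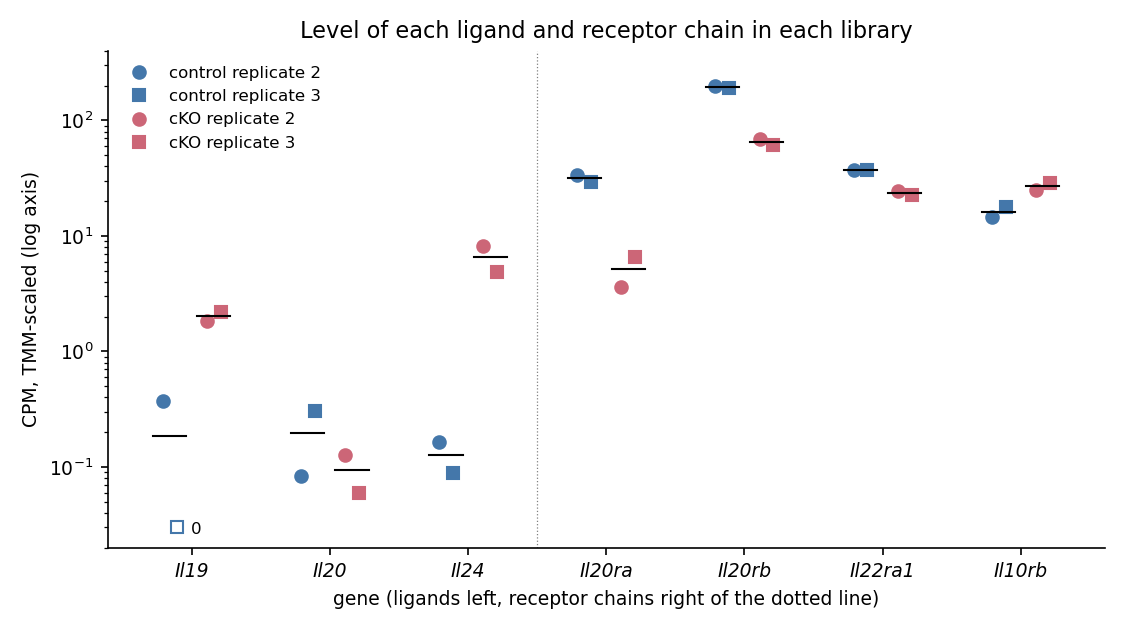
Level of each gene in each of the 4 libraries, in TMM-scaled CPM on a log axis. Blue points are control and red points cKO libraries, circles are replicate 2 and squares replicate 3, and black lines are group means. The open square marks a count of 0. The cKO libraries lie above the controls for Il19, Il24 and Il10rb and below them for Il20ra, Il20rb and Il22ra1, and the groups overlap for Il20. Of all tested genes, 52.9% show no overlap.

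The bases before the start of transcription were searched for motifs of factors that act downstream of cytokine receptors, and they are shown for the genes with a match. RefSeq start sites of build GRCm38.p6 gave the 250 bases before the start for 5 of the 7 genes, Il19, Il20, Il20ra, Il20rb and Il22ra1. Each was searched on both strands for a STAT motif TTCNNNGAA, an AP-1 motif TGANTCA and an NF-kB motif of GGG and TTTCC with any pair of bases between them, which do not overlap in the sequences shown. Capitals mark a match. The sequences read 5′ to 3′ on the strand of the gene.
Il19 (chr1:130940116-130940365, minus strand): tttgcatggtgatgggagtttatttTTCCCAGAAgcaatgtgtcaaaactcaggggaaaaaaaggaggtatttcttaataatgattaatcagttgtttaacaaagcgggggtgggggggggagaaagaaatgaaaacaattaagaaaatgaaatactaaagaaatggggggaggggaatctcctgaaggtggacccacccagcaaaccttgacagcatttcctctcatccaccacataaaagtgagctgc
Il20ra (chr10:19712337-19712586, plus strand): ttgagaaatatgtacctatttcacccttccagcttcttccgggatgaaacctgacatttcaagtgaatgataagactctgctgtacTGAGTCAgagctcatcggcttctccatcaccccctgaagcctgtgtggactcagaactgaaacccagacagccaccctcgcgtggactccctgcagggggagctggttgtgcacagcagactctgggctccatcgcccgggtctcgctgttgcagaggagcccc
Il22ra1 (chr4:135727909-135728158, plus strand): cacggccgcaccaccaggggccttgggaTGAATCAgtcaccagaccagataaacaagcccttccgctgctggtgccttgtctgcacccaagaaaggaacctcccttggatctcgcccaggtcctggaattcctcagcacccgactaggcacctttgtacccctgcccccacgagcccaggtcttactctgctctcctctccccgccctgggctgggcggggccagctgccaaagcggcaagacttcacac

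The window of Il19 holds 1 STAT match, which begins 225 bases before the start. The windows of Il20ra and Il22ra1 hold 1 AP-1 match each, beginning 164 and 222 bases before the start. None of the searched letters occur in the windows of Il20 and Il20rb. By GENCODE M21 the window of Il20rb lies wholly inside the transcribed gene, and those of Il20 and Il20ra lie in it in part. Of 32851 windows of the same length, 7.02% hold the STAT motif, 6.75% the AP-1 motif and 1.41% the NF-kB motif. A match describes the letters and is not evidence of a bound site.

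Among the ligands, Il24 (ENSMUSG00000026420), whose product signals through both receptor pairs, had 4 and 2 counts in control replicates 2 and 3 against 129 and 82 counts in cKO replicates 2 and 3. These correspond to 0.166 and 0.0881 CPM in control and to 8.21 and 4.89 CPM in cKO. Both cKO libraries were far above both controls. The fold change was 5.61 ± 0.57 in log2 (SE, n = 2 per group; adjusted p = 0.0455 by the edgeR quasi-likelihood test). Of the 17440 tested genes, 65 had a higher fold change. In limma voom the call was lost (log2 fold change 5.46, limma adjusted p = 0.0526), as it was in the fits on FPKM values. It was also lost without control replicate 2 or control replicate 3, and in those 2 settings no gene of the table was called. Its adjusted p over the alternatives ran from 9.6e-12 to 0.233.

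Il19 (ENSMUSG00000016524), a ligand of the IL-20RA and IL-20RB pair alone, had 9 counts in control replicate 2 and 0 in control replicate 3, and 29 and 37 counts in cKO replicates 2 and 3. The groups did not overlap, but the control libraries differed from each other, and a count of 0 there allows up to 0.132 CPM (3 counts in that library; counting error only). The pooled counts of 9 and 66 differed by a scaled ratio of 10.6, whose 95% counting interval ran from 5.24 to 24.1. Its fold change in log2 was 3.37 ± 1.10 without passing (SE, n = 2 per group; adjusted p = 0.196 by the edgeR quasi-likelihood test). The edgeR exact test called it (adjusted p = 0.0149), and over the alternatives the adjusted p ran from 0.0149 to 0.486. Without control replicate 3 the log2 fold change was 2.43, and without control replicate 2, where the remaining control has 0 counts and the value is no bound, it was 8.22.

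Il20 (ENSMUSG00000026416), which lies between Il24 and Il19 on the same strand, had 2 and 7 counts in control and 2 and 1 counts in cKO replicates 2 and 3. The libraries of the groups overlapped. The scaled ratio of cKO over control was 0.48, with a 95% counting interval from 0.0836 to 1.92. A difference was therefore not detected at this depth. In the fit with no filter on low counts the gene had a log2 fold change of -1.03 ± 1.27 (SE, n = 2 per group; adjusted p = 0.758 by the edgeR quasi-likelihood test). The flanking genes Il24 and Il19 had 211 and 66 counts in the cKO libraries together, and Il20 between them had 3.

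Among the receptor chains, Il20rb (ENSMUSG00000044244), the beta chain common to both IL-20 receptors, was the most abundant member, at 197 and 190 CPM in control replicates 2 and 3, against 68.5 and 60.9 CPM in the cKO libraries of the same numbers. Replicates lay close together and the groups stood well apart. It fell by 1.58 ± 0.14 on the log2 scale, to about a 2.99-fold lower level (SE, n = 2 per group; adjusted p = 0.0428 by the edgeR quasi-likelihood test). With between 1020 and 4730 counts per library it was the member with the most counts. Its fold change stayed between -1.67 and -1.49 in all 15 alternative settings, but 5 of them lost the call. Those were the fits on FPKM values and the fits without control replicate 2 or 3.

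Il20ra (ENSMUSG00000020007), the ligand-binding alpha chain of the receptor that all the ligands share, stood at 33.7 and 29.0 CPM in control replicates 2 and 3. In cKO replicates 2 and 3 it stood at 3.63 and 6.62 CPM, from 57 and 111 counts. Both cKO libraries were far below the controls, and cKO replicate 2 was the lower of the pair. The log2 fold change of -2.61 ± 0.35 was larger in size than that of Il20rb, a difference that was not tested, and missed the threshold (SE, n = 2 per group; adjusted p = 0.0552 by the edgeR quasi-likelihood test). In 7 of 15 alternatives it passed, among them DESeq2 (adjusted p = 1.92e-08). Over the alternatives its adjusted p ran from 1.92e-08 to 0.249, and its fold change ran from -3.10 without cKO replicate 3 to -2.25 without cKO replicate 2.

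Il22ra1 (ENSMUSG00000037157), the alpha chain shared by a receptor of IL-20 and IL-24 and by the IL-22 receptor, stood at 37.3 and 37.4 CPM in control and at 24.3 and 22.4 CPM in replicates 2 and 3 of cKO. The groups did not overlap, as was also true of 52.9% of all tested genes. Its change in log2 was -0.68 ± 0.15 without passing (SE, n = 2 per group; adjusted p = 0.107 by the edgeR quasi-likelihood test), and DESeq2 called it (adjusted p = 0.0408). Over the alternatives its adjusted p ran from 0.0408 to 0.673.

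Il10rb (ENSMUSG00000022969), the broadly expressed chain of the IL-10, IL-22 and type III interferon receptors, was higher in the cKO libraries. It stood at 14.5 and 17.8 CPM in control and at 25.2 and 28.5 CPM in replicates 2 and 3 of cKO, with no overlap. The change in log2 was 0.73 ± 0.20 without passing (SE, n = 2 per group; adjusted p = 0.15 by the edgeR quasi-likelihood test). An annotated transcript unit on the same strand, Gm21970, shares exon sequence with Il10rb, and it was listed with 0 counts in all 4 libraries.

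**Figure D2:**
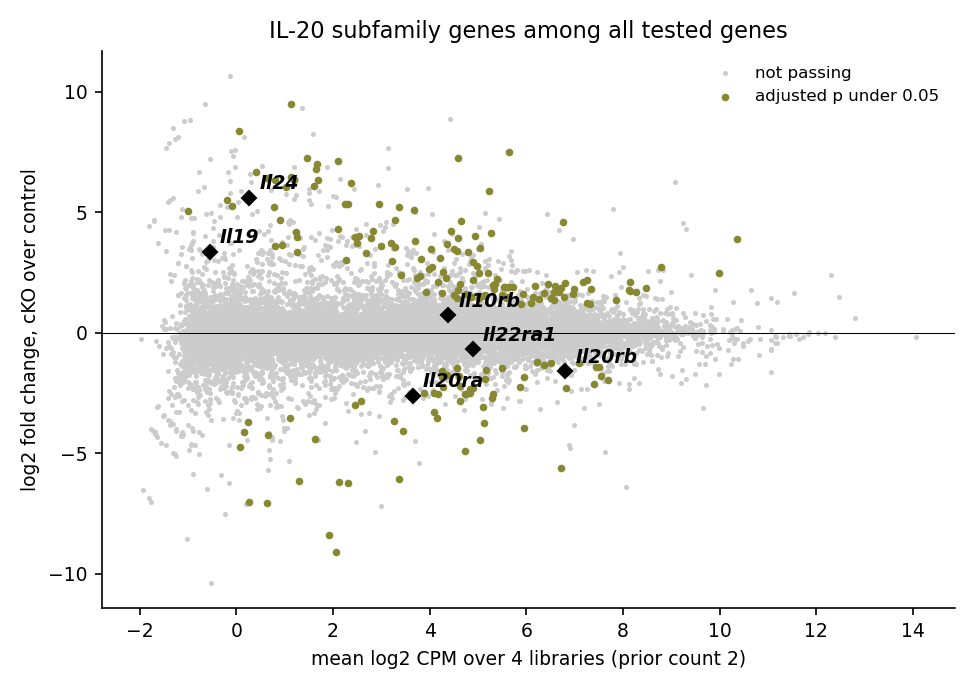
Log2 fold change of cKO over control against the mean log2 CPM of the 4 libraries for each of the 17440 tested genes, with the 6 tested members as labelled black diamonds. Olive points passed the test and grey points did not. Il24 lies high at a low mean level, with 65 genes above it, and Il20ra and Il20rb lie below 0, with 207 and 602 genes below them.

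Levels of different genes were compared per length, with the authors' FPKM values (fragments per kilobase of transcript, scaled to the size of the library). In control skin the receptor chains stood far above the ligands: Il20rb averaged 47.0 FPKM, Il20ra 15.4, Il22ra1 14.8 and Il10rb 4.34, against 0.165 for Il19, 0.165 for Il20 and 0.09 for Il24. Il20ra overlapped with Il22ra1, and the ligands overlapped among themselves, while the other neighbours in this order were separate in both libraries. In cKO skin the order was Il20rb at 15.0 FPKM, Il22ra1 at 8.88, Il10rb at 6.87, Il24 at 4.63, Il20ra at 2.38, Il19 at 1.72 and Il20 at 0.08. In this order only Il20ra and Il19 overlapped. Il24 transcripts, at 5.88 and 3.39 FPKM in cKO replicates 2 and 3, thus exceeded those of Il20ra, at 1.72 and 3.04 FPKM.

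The balance between chains that share a partner was compared as a ratio within each library, which needs no scaling between libraries. Il22ra1 over Il20ra, the alpha chains that pair with IL-20RB, had an FPKM ratio of 0.898 and 1.05 in control replicates 2 and 3 and of 5.46 and 2.75 in cKO replicates 2 and 3. Near equality in control thus became an excess of Il22ra1 in both cKO libraries. On the log2 scale the means were -0.04 ± 0.16 and 1.95 ± 0.70 (SD, n = 2), so that the ratio was 4.0-fold higher in cKO.

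Il20rb over Il22ra1 had a ratio of 3.22 and 3.11 in control and of 1.72 and 1.66 in cKO replicates 2 and 3, so the shared beta chain was in smaller excess in cKO. Il10rb over Il22ra1, the chains of the IL-22 receptor, had a ratio of 0.263 and 0.322 in control and of 0.7 and 0.858 in cKO replicates 2 and 3. The groups did not overlap in any of these 3 ratios. The differences in log2 ratio were -0.90 and 1.41. In each case the two-sided exact permutation test gave p = 0.333, the smallest value that 2 libraries against 2 allow, so this design cannot pass a threshold for them, and adjustment over the 3 ratios leaves it there.

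**Figure D3:**
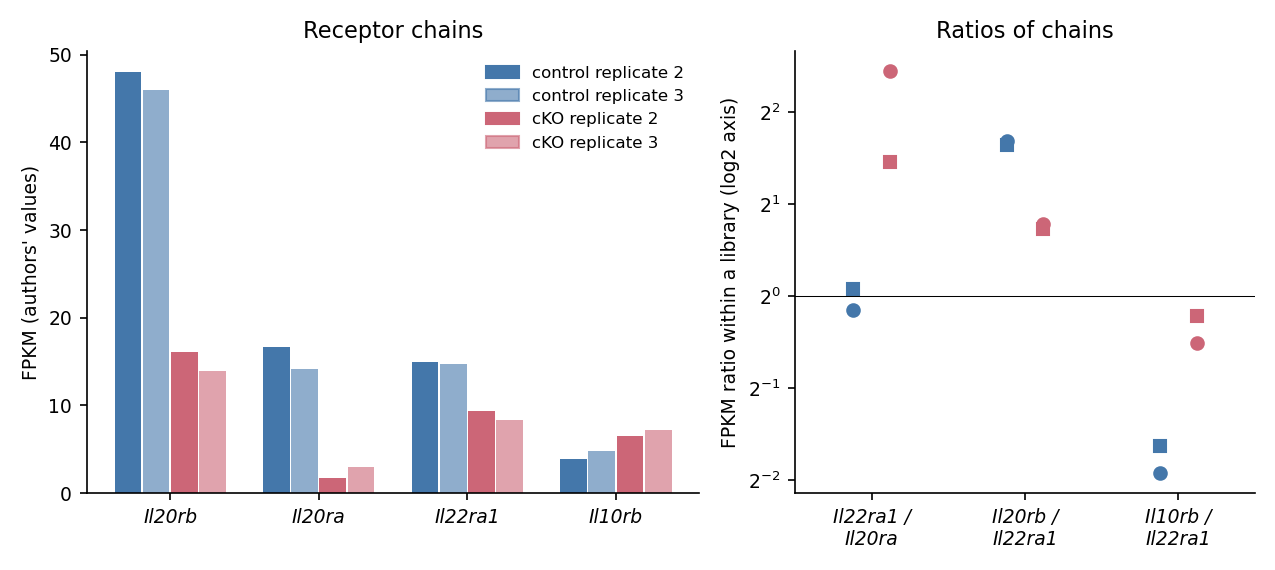
Left, FPKM of each receptor chain in each library as bars from 0, blue for control and red for cKO, dark for replicate 2 and pale for replicate 3. Right, FPKM ratio of pairs of chains within each library on a log2 axis, with circles for replicate 2 and squares for replicate 3. Il22ra1 over Il20ra lies near 1 in control and at 2.75 and 5.46 in cKO.

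Several cell types of skin could carry these transcripts, and in bulk tissue fewer cells of a type and less RNA per cell cannot be told apart. Markers of basal and suprabasal keratinocytes, the cells known to carry the Il20ra, Il20rb and Il22ra1 chains, were present at high level: the 9 markers summed to between 19400 and 20300 CPM in control and between 34100 and 40100 CPM in cKO. Of these 9, 5 had a positive and 4 a negative fold change and 0 passed edgeR quasi-likelihood (4 with p under 0.05 before adjustment; DESeq2 called 4, the edgeR exact test 4 and limma voom 0). Krt14 had a log2 fold change of 1.48 ± 0.42 and Krt15, a keratin of the basal layer and the follicle bulge, one of -2.18 ± 0.47. Most of the difference in the sum came from Krt14, at 3900 and 3010 CPM in control against 11500 and 7740 CPM in cKO, and Krt1, at 2370 and 2140 against 8250 and 15300 CPM. Krt15, Trp63 and Dsg1a were lower in both cKO libraries than in both controls without passing, and the groups overlapped for Krt5.

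All 8 sebocyte markers had a negative fold change, as had Il20ra, Il20rb and Il22ra1 but not Il10rb, and 1, Scd3, was called lower (5 with p under 0.05 before adjustment; DESeq2 3, the exact test 3, limma voom 1). Their sum was 4880 to 5890 CPM in control and 1560 to 2310 CPM in cKO. The 10 T cell markers summed to 42.1 to 53.8 CPM in control and 20.9 to 46.4 CPM in cKO, with 8 negative and 0 called by edgeR quasi-likelihood (7 with p under 0.05 before adjustment; DESeq2 3, the exact test 5, limma voom 0). Cd8a, among the negative ones, passed the filter on low counts only with the control libraries.

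Markers of neutrophils, macrophages, fibroblasts and endothelium were higher in both cKO libraries in sum, as were Il24 and Il19 but not Il20. The sums of the keratinocyte and hair follicle markers were higher in both cKO libraries too. Neutrophil markers summed to 17.0 to 23.4 CPM in control and to 989 to 1440 CPM in cKO, with 7 of 9 tested called higher (9 with p under 0.05 before adjustment; DESeq2 9, the exact test 9, limma voom 6), and Ly6g was too low to be tested. Of these 7, 5 (Fpr1, Trem1, Mmp8, Clec4d and Clec4e) passed the filter on low counts only with the cKO libraries and could only be called higher, so the count is not read against the 0.74% of all tested genes called higher. The other called genes were S100a8 and S100a9, which made up most of the neutrophil sum in cKO. In cKO replicates 2 and 3 S100a8 stood at 354 and 245 CPM and S100a9 at 858 and 509 CPM. Both also stand on the list, given below, of genes known to rise in keratinocytes or inflamed epidermis. Ly6g had 0 and 3 counts in control replicates 2 and 3 and 39 and 8 counts in cKO replicates 2 and 3. The 10 macrophage and monocyte markers summed to 460 to 639 CPM in control and to 1200 to 1210 CPM in cKO, with 9 positive and 1, Cd14, called higher (7 with p under 0.05 before adjustment; DESeq2 7, the exact test 7, limma voom 0). Fibroblast markers were positive in 8 of 8, with the collagen genes Col5a1 and Col5a2 called higher (6 with p under 0.05 before adjustment; DESeq2 6, the exact test 6, limma voom 2), and summed to 6520 to 7540 CPM in control and 13100 to 20600 CPM in cKO. Endothelial markers were positive in 7 of 7, at 317 to 339 CPM against 464 to 756 CPM, with 0 called by edgeR quasi-likelihood (5 with p under 0.05 before adjustment; DESeq2 3, the exact test 3, limma voom 0). No marker on the lists was at 0 in all libraries. The part of these cell types in the change of the ligands and receptor chains was not tested.

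Hair follicle markers differed by replicate number as well as by genotype, at 1690 and 224 CPM in control replicates 2 and 3 and at 8560 and 2370 CPM in replicates 2 and 3 of cKO. Muscle markers stood at 7980 and 12200 CPM in control and 1860 and 11200 CPM in cKO replicates 2 and 3. The groups overlapped in the muscle sum, and only cKO replicate 2 lay below both controls. In these lists 0 of 10 and 0 of 6 passed edgeR quasi-likelihood (1 and 0 with p under 0.05 before adjustment; DESeq2 and the exact test 1 and 0, limma voom 0 and 0). All 10 hair follicle markers had a positive fold change. All 6 muscle markers had a negative one, as had the sebocyte markers, but the groups overlapped for each muscle marker and for no sebocyte marker. Among the members, Il20ra was lower and Il24 higher in cKO replicate 2 than in cKO replicate 3, and the remaining receptor chains differed little between replicates. The part of these markers in the differences was not tested.

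Most other ligand genes of the class II cytokine family were too low to test. Of 8 other ligand genes (Il10, Il22, Iltifb, Ifnl2, Ifnl3, Ifnb1, Ifng and Ifnk) only Il10 was high enough to test, with 22 counts in control and 26 in cKO and a log2 fold change of 0.74 ± 1.38 (adjusted p = 0.821 by edgeR quasi-likelihood). Il22, whose product shares IL-22RA1, had 0 counts in control and 2 in cKO. Iltifb, Ifnl2, Ifnl3 and Ifnb1 were at 0 in every library, which allows up to 0.191 CPM in the shallowest of them.

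Of 8 other receptor genes of the family, 0 passed edgeR quasi-likelihood; 4 had p under 0.05 before adjustment, and DESeq2 called 3, the exact test 2 and limma voom 0. The median of their log2 fold changes was -0.18, beside 0.00 over all tested genes. Il22ra2, which encodes a soluble decoy that binds IL-22, stood at 6.48 and 12.8 CPM in control and at 2.10 and 0.418 CPM in replicates 2 and 3 of cKO, with no overlap and a log2 fold change of -2.94 ± 0.83 (SE, n = 2 per group; adjusted p = 0.16 by the edgeR quasi-likelihood test). It passed the filter on low counts only with the control libraries, so a call could only be lower. Ifnlr1, the specific chain of the type III interferon receptor, had -1.31 ± 0.30, F3, the tissue factor gene, -0.79 ± 0.21, and Ifnar2, a chain of the type I interferon receptor, 0.82 ± 0.20, without passing.

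On the chromosomes some of these genes are neighbours. By GENCODE M21, Il24, Il20 and Il19 lie side by side with Il10 on one flank and Fcmr, Pigr and Fcamr on the other, Il20ra lies near Il22ra2 and Ifngr1, Il22ra1 near Ifnlr1, and Il10rb beside Ifnar2. Among 15 tested neighbours 0 passed edgeR quasi-likelihood (5 with p under 0.05 before adjustment; DESeq2 and the exact test 4, limma voom 0), and the median log2 fold change was 0.01. Fcamr and Pigr, genes of receptors for immunoglobulins, had log2 fold changes of -2.10 ± 0.36 and -2.63 ± 0.63, opposite in sign to their neighbour Il24. Pigr, like Il22ra2, passed the filter on low counts only with the control libraries, so a call of either could only be lower. Several other neighbours had the sign of the nearby member without passing. Among them were Il22ra2 near Il20ra (-2.94 ± 0.83), Ifnlr1 near Il22ra1 (-1.31 ± 0.30) and Ifnar2 beside Il10rb (0.82 ± 0.20). Nck1 and Slc35g2, near Il20rb, had 0.01 ± 0.14 and 0.91 ± 0.42, whereas Il20rb was lower. Ifngr1, a chain of the interferon gamma receptor, stood at 120 and 174 CPM in control and at 102 and 127 CPM in replicates 2 and 3 of cKO, and its libraries overlapped, whereas those of the nearby Il20ra did not.

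Downstream of the receptors, 0 of 15 kinase, STAT and feedback genes passed edgeR quasi-likelihood; 6 had p under 0.05 before adjustment, and DESeq2 called 2, the exact test 2 and limma voom 0. The median log2 fold change was 0.03. Socs3, a feedback inhibitor induced by STAT3, stood at 81.7 and 62.3 CPM in control and at 125 and 185 CPM in replicates 2 and 3 of cKO, which gave 1.11 ± 0.26 in log2 without passing (SE, n = 2 per group; adjusted p = 0.116 by the edgeR quasi-likelihood test). Cish, a feedback inhibitor linked to STAT5, had the opposite sign, at 35.1 and 37.6 CPM in control and 15.8 and 18.6 CPM in cKO (log2 fold change -1.08 ± 0.17, adjusted p = 0.0709 by edgeR quasi-likelihood). The kinase gene Tyk2 and Pias3, an inhibitor of STAT3, had -0.52 ± 0.17 and -0.65 ± 0.21.

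Of 15 genes that IL-20 subfamily cytokines or IL-22 are known to raise in human keratinocytes or that respond with them in inflamed epidermis, 6 rose, 0 fell and 9 did not pass (edgeR quasi-likelihood; 13 with p under 0.05 before adjustment; DESeq2 13, the exact test 13, limma voom 6). Over all tested genes 0.74% were called higher, and 20% had p under 0.05 before adjustment in the edgeR quasi-likelihood test. The list was chosen with earlier results of these data known, so its counts are a description. The genes that rose were S100a8, S100a9, Krt6a, Defb14, Lcn2 and Il1f6, and S100a8 and S100a9 stand on the neutrophil list as well. Defb14, a beta-defensin, rose from 0.457 and 0.661 CPM in control to 9.67 and 7.94 CPM in replicates 2 and 3 of cKO. Il1f6, the gene of IL-36 alpha, rose from 9.77 and 7.49 CPM to 76.2 and 103 CPM, and Lcn2, the siderophore binder lipocalin 2, from 5.57 and 4.45 to 97.9 and 90.4 CPM. Defb14, with Defb4 and Csf3 of those that did not pass, passed the filter through the cKO libraries alone. Over all 15 genes the log2 fold change had a median of 4.26, and over the other 12 one of 4.24. Pdgfa and Krt17, also on the list, had log2 fold changes of -0.08 ± 0.24 and 0.06 ± 0.33; they are named here after their values were seen.

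A further list held genes of keratinocyte maturation, several of which IL-20 or IL-22 is known to lower in human keratinocyte cultures. Of 7 tested, 0 passed edgeR quasi-likelihood (3 with p under 0.05 before adjustment; DESeq2 3, the exact test 3, limma voom 1), and their median log2 fold change was 0.61. Krt1 and Krt10, the keratins of the suprabasal layers, had 2.38 ± 0.49 and 0.61 ± 0.47, and the calmodulin-like Calml3 had 0.98 ± 0.18. Flg, for which the identifier with the most counts was taken because several share the name and can share reads, had 2.61 ± 0.33 (adjusted p = 0.0525 by edgeR quasi-likelihood). Under the same name ENSMUSG00000102439 had 2.72 and ENSMUSG00000103750 had 2.66, and both passed (adjusted p = 0.049 and 0.0476 by edgeR quasi-likelihood). ENSMUSG00000102829, ENSMUSG00000103777, ENSMUSG00000102395 and ENSMUSG00000102724 did not pass, so the call of Flg depends on the identifier taken.

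Upstream, 3 of 13 tested genes of cytokines and growth factors known to induce the subfamily rose, 0 fell and 10 did not pass (edgeR quasi-likelihood; 7 with p under 0.05 before adjustment; DESeq2 6, the exact test 6, limma voom 3). This list was also chosen with earlier results of these data known, and 0.74% of all tested genes were called higher. Il1b, the gene of the inflammatory cytokine IL-1 beta, stood at 8.77 and 9.82 CPM in control and at 196 and 131 CPM in replicates 2 and 3 of cKO, a log2 fold change of 4.14 ± 0.26 (adjusted p = 0.0332 by edgeR quasi-likelihood). Il33, an alarmin of epithelial nuclei, rose from 49.9 and 45.2 to 125 and 124 CPM, and Hbegf, an EGF receptor ligand, from 13.4 and 12.6 to 48.0 and 40.7 CPM. Their log2 fold changes were 1.39 ± 0.13 and 1.77 ± 0.17. Osm, the gene of oncostatin M, stood at 1.25 and 0.793 CPM in control and at 8.46 and 13.9 CPM in cKO without passing (log2 fold change 3.45 ± 0.45, adjusted p = 0.054 by edgeR quasi-likelihood).

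Of the inducers, Il13, Il4, Il17a, Il17c and Il17f were low. Il13 had 77 counts in control and 3 in cKO, or -4.07 ± 0.95 in log2 without passing (adjusted p = 0.112 by edgeR quasi-likelihood), and Il4 had -0.30 ± 0.33. Since Il13 passed the filter on low counts only with the control libraries, a call of it could only be lower. Il17a had 1 and 1 counts in control replicates 2 and 3 against 4 and 22 in cKO replicates 2 and 3. In the same order Il17c had 1 and 1 against 3 and 7, and Il17f 0 and 2 against 0 and 19. These genes were too low to be tested. The Il17f counts in cKO came from replicate 3 alone, and its groups overlapped. These 5 genes were named after their values were seen. Over the pathway lists together, each gene counted once, 9 of 67 tested genes rose and 0 fell, that is 13.4%, where 1.09% of all tested genes were called in either direction. Of the 9, Defb14 could only be called higher. The lists were chosen with earlier results of these data known, so this share is a description.

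**Figure D4:**
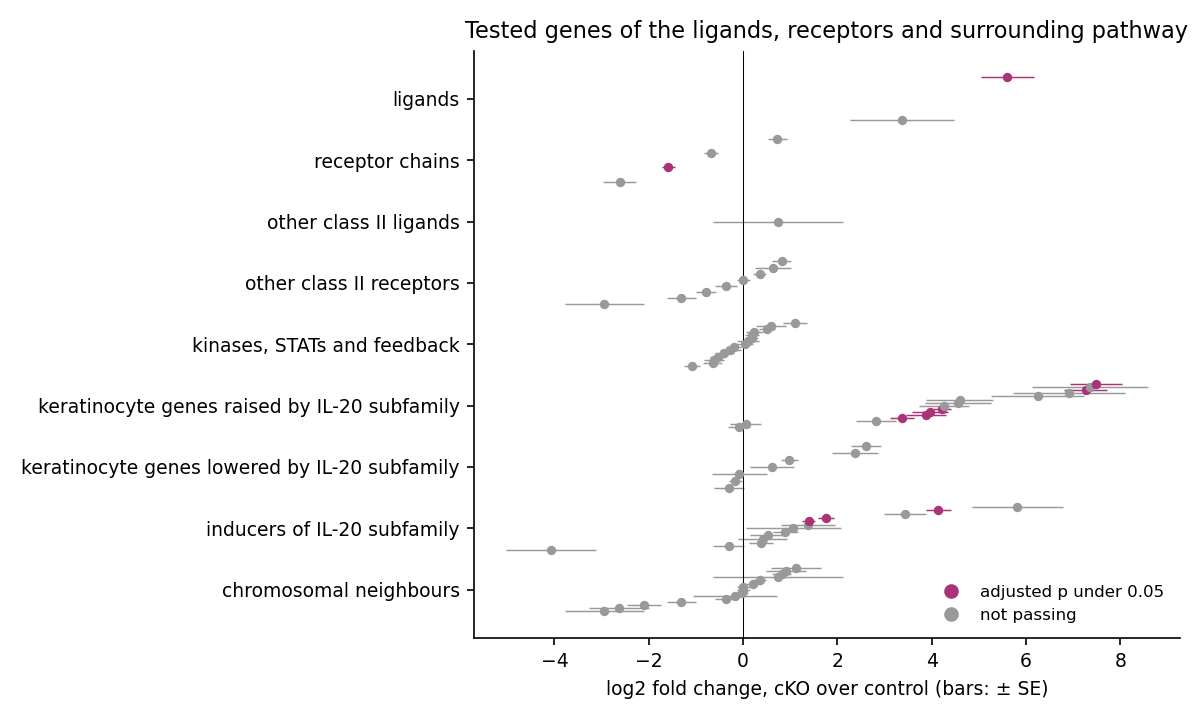
Log2 fold change of cKO over control for each tested gene of the ligand, receptor and pathway lists, with bars of 1 SE. Purple points passed the test and grey points did not, and a gene on more than 1 list appears in each. The points that passed are Il24, Il20rb and genes on the lists named for being raised by or inducing the subfamily. Il20rb was lower and the others were higher. The relation of the list genes to the subfamily was not tested.

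The genes most like each member over the 4 libraries were found by the distance between log2 CPM profiles, each centred on its mean, which with 4 libraries and 2 genotypes is a description only. Nearest to Il24 were Mrgpra2b (distance 0.35 log2 units), a Mas-related G protein-coupled receptor gene, Spp1 (0.58), the gene of osteopontin, and Sprr1b (0.73), a cornified envelope protein. Spp1, for example, stood at 4.86 and 5.15 CPM in control and at 136 and 111 CPM in replicates 2 and 3 of cKO. Nearest to Il19 were Adamts4 (0.55), a secreted protease, Disp2 (0.57) and Draxin (0.57), each of which was also lower in control replicate 3 than in control replicate 2.

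Nearest to Il20ra were Pik3c2g (0.11), a phosphoinositide kinase, the cation exchanger Slc24a3 (0.29) and the sugar transporter Slc2a12 (0.37). Nearest to Il20rb were Rgs9 (0.07), a regulator of G protein signalling, Dnase1l3 (0.10), a secreted nuclease, and Nyap1 (0.11). Slc24a3, Slc2a12 and Dnase1l3 were called lower (edgeR quasi-likelihood adjusted p = 0.0476, 0.0428 and 0.0476). For Il22ra1 they were Hscb, Decr2 and Eps8l1 (0.03 to 0.05), and for Il10rb Lgals3bp, Mrgpre and Lama2 (0.06 to 0.07). None of these 6 passed the test.

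The authors' deposited table gives the same signs for the 6 tested members. Its log2 fold changes are 4.62 for Il24, 2.76 for Il19, -2.63 for Il20ra, -1.65 for Il20rb, -0.74 for Il22ra1 and 0.66 for Il10rb in the authors' deposited table, and 0.00 for Il20. Its false discovery rates in the authors' deposited table are 4.88e-11, 0.00184, 5.49e-07, 5.47e-05, 0.301 and 0.32 for the same 6 genes. So 4 of the 7 members were below 0.05 there. The share over all 47725 genes of the authors' deposited table was 3.39%, but only 27832 of them had a count in any library. Il24 and Il19, which had few counts in control, are among the 4, so the 4 are not read against that share.

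**Figure D5:**
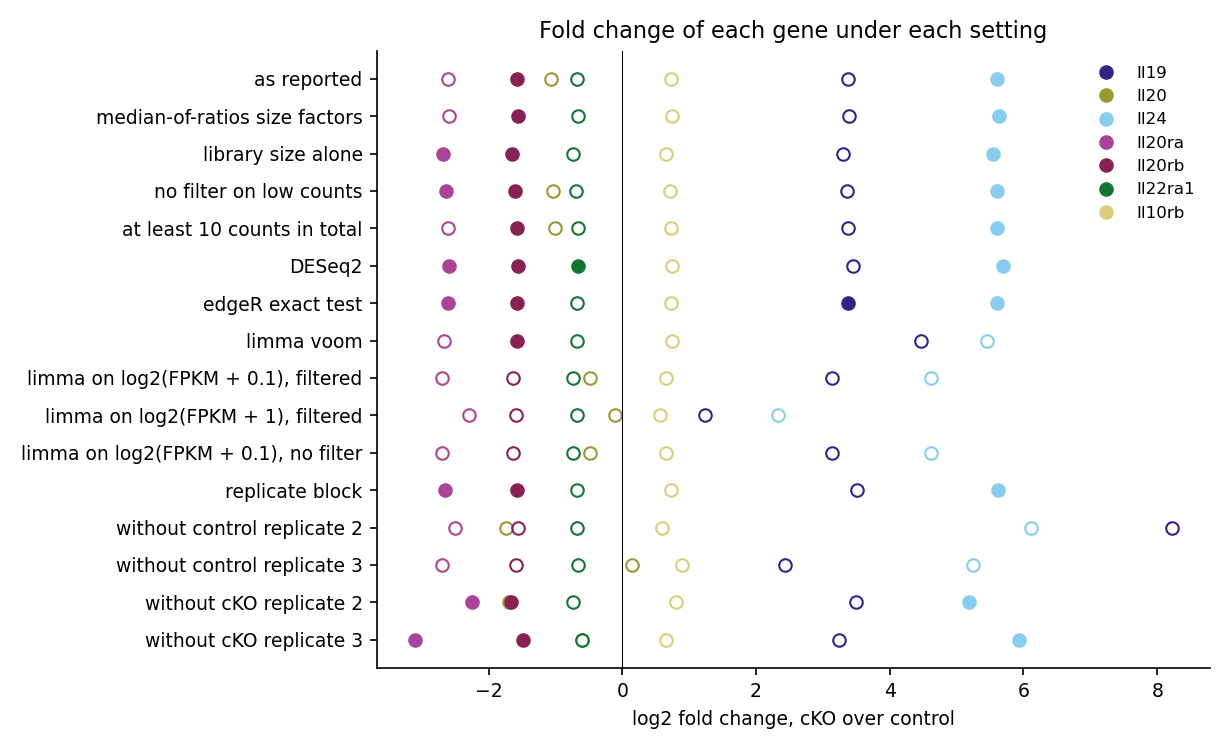
Log2 fold change of each member under the reported setting and 15 alternatives, filled where the adjusted p was under 0.05. No member that was tested as reported changes sign. For Il20 the reported point and those without a library are ratios of pooled counts, not fits. Filled points are absent without control replicate 2, without control replicate 3 and in the fits on FPKM.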

How the data were processed

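Per the labels' protocols, poly(A) RNA of frozen skin was captured on oligo(dT) beads for TruSeq libraries. The expected counts are the authors' estimates, and RSEM, edgeR and the build mm8 are named in the submitters' processing notes; all deposited counts are whole numbers. The FPKM values and the log2 fold change, p-value and false discovery rate of cKO over control were deposited by the authors. The sources used here do not give the aligner, the annotation release or the use of strand. Ctr columns were read as the floxed titles, since no other group than cKO exists. Of the table's identifiers, 98.9% are in GENCODE M21 (GRCm38), used for names and neighbours only.

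Genes were filtered with filterByExpr, scaled with TMM and tested with edgeR 4.0.16 (R 4.3.3; limma 3.58.1 and DESeq2 1.42.0 as alternatives), cKO against control with no covariate, adjusted over all tested genes at 0.05. SD is between libraries; SE is the unshrunk log2 fold change over the root of the F statistic. Counting intervals are exact, at 95%, and with the floors of 3 counts cover counting error only. FPKM fits used log2(FPKM + 0.1), with + 1 as a variant, so they understate changes of low genes. In simulated counts for the 17440 genes of this comparison, changes were given only to genes with a mean above 1 CPM. Of these, 62% of genes with a 4-fold change were recovered, and 4.67% of genes with a 2-fold change, with 10.7% false among the calls. The recovery of genes at lower levels was not simulated. Replicates differed beyond sampling noise (chi-square per gene 26.2 in control and 102 in cKO).

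The members and lists were chosen with earlier results of these data known. Named are all members, list genes past the threshold and up to 4 per list with the smallest p, marker examples, and the 3 nearest profiles per member with a mean of at least 0.5 CPM, among genes of at least 1 CPM with no clone name. The marker rule was to take up to 2 per list by level; the marker genes in the text, and Ifngr1 among the neighbours, were instead named after their values were seen.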

Additional observations from a re-analysis of the deposited data

How the results depend on the processing

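No tested member changed sign in any of the 15 alternatives. The 190 genes called became 183 to 275 with median-of-ratios factors, library size alone, at least 10 counts in total or limma voom. They became 883 with no filter, 1886 in DESeq2, 1780 in the edgeR exact test, 1, 23 and 0 in limma on log2(FPKM + 0.1), on log2(FPKM + 1) and without a filter on FPKM, and 0 to 1664 in fits that leave out a library. The 2 members called became 4 in DESeq2 and in the exact test, 1 in limma voom, 0 in each FPKM fit and 0 to 3 without a library. The 9 pathway genes called became 23 with no filter, 28 in DESeq2, 28 in the exact test, 0, 4 and 0 in the FPKM fits in the order above, and 0 to 29 without a library. The loss of all calls came without control replicate 2 or control replicate 3, where 1832 and 1574 genes had an unadjusted p under 0.05; the lone control library is then assumed to vary like the cKO pair.

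Il24 lost its call in limma voom (5.46) and on FPKM (4.61, 2.33 and 4.61), and ran from 5.19 to 6.11 without a library. Il20rb lost its call on FPKM (-1.64, -1.59 and -1.64) and ran from -1.67 to -1.49 without a library. Il20ra passed with library size alone (-2.68), no filter (-2.63), DESeq2 (-2.59) and the exact test (-2.61), and ran from -3.10 to -2.25 without a library. Il19 passed in the exact test (3.38) and ran from 2.43 to 8.22 without a library; the last value has controls at 0 and is no bound. Il22ra1 passed in DESeq2 (-0.66). The counting ratio of Il20 ran from -1.74 to 0.15 in log2 without a library, so its sign is not settled. It has no value in the alternatives that keep the filter of the reported fit. The chain ratios kept their sign, at 1.5 to 2.49, -0.93 to -0.88 and 1.27 to 1.56 in log2. The cause of these differences was not tested.

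With the replicate block 1177 genes were called and 21 pathway genes, Il20ra passed (-2.65, adjusted p = 0.0309 by edgeR quasi-likelihood), and Il24 and Il20rb stayed called. The labels do not say that a number marks a pair. Deviations of same-numbered libraries from their group means correlated with r = 0.414 across 17440 genes, which are not independent replicates. At 0 to 9 control counts per library, depth limits the fold of Il19, Il20 and Il24.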
